A study of Homo sapiens with 6 samples.

Results

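MAOA, MAOB and ALDH2 encode enzymes of monoamine breakdown, and they are 3 of the 24872 rows in the table of FPKM values (fragments sequenced from a gene, scaled by its length and by library size). They were selected by gene symbol, and the selection used measured values: MAOA was known to be lower in both treated groups than in controls. The comparisons of these 3 genes with controls are therefore given as descriptions with no test, and they are tested only between the treated groups. RNA was sequenced from 22RV1, an established human prostate cancer cell line, in 2 libraries of each of 3 groups, all marked day 2. The OE group overexpressed the long noncoding RNA MAGI2-AS3, the mimics group was given miR-106a-5p mimics, and the group marked NC served as control. What NC cells received is not described, and the labels call the microRNA a mimic in 1 place and a plasmid in another. Nothing says that replicates were separate cultures, so the spread between them may be technical. The 6 libraries summed to 402526 to 429262 FPKM, and held 12344 to 12983 rows of at least 1 FPKM, and the number of fragments behind each value is unknown. All 10 luminal prostate markers, among them KLK2 and KLK3, passed the expression filter.

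Monoamine oxidases A and B sit in the outer mitochondrial membrane, carry a covalently bound flavin (FAD), and oxidise amines such as serotonin, noradrenaline and dopamine to aldehydes, releasing ammonia and hydrogen peroxide. MAOA prefers serotonin and noradrenaline, whereas MAOB prefers phenylethylamine. The aldehydes are then oxidised by aldehyde dehydrogenases, of which ALDH2 is the mitochondrial matrix form that also clears acetaldehyde from ethanol. In prostate cancer MAOA has been described as promoting growth, invasion and metastasis.

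miR-106a-5p shares its seed (bases 2 to 8, in capitals) with other mature microRNAs, at least 8 with itself in the RefSeq table on GRCh38.p14. The sequences of miR-106a-5p and of 2 relatives that keep the seed are shown because the seed decides which messenger RNA letters can pair with the molecule given to the mimics cells.
hsa-miR-106a-5p: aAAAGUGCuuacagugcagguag
hsa-miR-17-5p: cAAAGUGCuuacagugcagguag
hsa-miR-93-5p: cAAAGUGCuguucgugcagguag

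The complement of the seed, GCACTTT, was searched on the sense strand of the 3′ UTR of 1 principal coding transcript per gene in GENCODE 29. MAOA, whose 3′ UTR is 2308 nucleotides long, held no match, nor did MAOB with 855 nucleotides. Among 3′ UTRs within 20% of these lengths, 33.0% and 11.1% of genes held a match, and over all 18937 genes 19.0% did. ALDH2, with a 3′ UTR of 7954 nucleotides, held 5 matches, and 72.8% of 3′ UTRs of similar length held at least 1. Of the 5 ALDH2 matches, 1 is printed with its flanks to show how the seed complement sits in the transcript. The printed match is not typical. Each of the others has the same flanks, cca before and ggga after, marked here as letters of a shared repeat. It lies on the plus strand of chromosome 12 (GRCh38), at the position given for its core, which is in capitals. These letters describe the annotated transcript and do not show that the microRNA binds it.
chr12:111813085-111813091: ttaatctccttGCACTTTtagtgacagga

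MAOA (ENSG00000189221) lies on the plus strand of chromosome X from 43654907 to 43746824, and MAOB (ENSG00000069535) beside it on the minus strand from 43766611 to 43882447, so that the genes point towards each other. ALDH2 (ENSG00000111275) lies on the plus strand of chromosome 12 from 111766887 to 111817529. The principal transcripts of MAOA and MAOB have 15 exons each and that of ALDH2 has 13. The coding sequences of MAOA and MAOB, of 1584 and 1563 nucleotides, were identical at 73.0% of aligned positions, and the longest stretch shared by the 2 transcripts was 41 nucleotides. No exon of MAOA or MAOB overlapped another annotated gene. AC002996.1 shares exons with ALDH2 on the same strand and was listed at 0 in all 6 libraries.

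The 250 bases before the RefSeq start of MAOA and MAOB are shown because SP1 and KLF11, which are listed below among the regulators of MAOA, bind GC-rich boxes in such promoters. GGGCGG and its reverse complement CCGCCC are in capitals, and overlapping matches were counted. The MAOA window held 4, all as CCGCCC, and the MAOB window held 7, of which 5 were GGGCGG and 2 CCGCCC. At least 1 match was present in 42.6% of 35116 promoter windows of the same length, at least 4 in 7.63% and at least 7 in 1.12%. The GC content was 63.2% for MAOA and 72.0% for MAOB. The RefSeq start of MAOA lies inside the span that GENCODE gives the gene. These RNA data do not measure binding at either promoter.
MAOA promoter, chrX:43656049-43656298 (GRCh38.p14, plus strand): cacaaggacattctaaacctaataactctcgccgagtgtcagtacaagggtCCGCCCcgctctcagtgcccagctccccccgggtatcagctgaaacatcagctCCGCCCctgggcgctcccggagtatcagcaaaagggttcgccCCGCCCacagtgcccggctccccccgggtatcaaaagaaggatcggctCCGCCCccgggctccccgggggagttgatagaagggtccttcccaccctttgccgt
MAOB promoter, chrX:43882451-43882700 (GRCh38.p14, minus strand): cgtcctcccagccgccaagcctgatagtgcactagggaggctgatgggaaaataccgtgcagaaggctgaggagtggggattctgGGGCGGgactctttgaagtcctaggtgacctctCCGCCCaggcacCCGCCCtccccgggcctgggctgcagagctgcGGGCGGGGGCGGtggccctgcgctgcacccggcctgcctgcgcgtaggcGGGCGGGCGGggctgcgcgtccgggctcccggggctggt

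MAOA was lowest in OE cells, intermediate in mimics cells and highest in NC cells, and no libraries of different groups overlapped. It stood at 3.04 and 3.58 FPKM in the OE libraries, at 8.54 and 5.91 FPKM in the mimics libraries and at 14.7 and 14.4 FPKM in the NC libraries. The mean in OE was 0.227 times that in NC, a difference of -1.99 on the log2(FPKM + 0.5) scale, and the mean in mimics was 0.496 times that in NC, a difference of -0.99. Both comparisons use the same 2 NC libraries. They are the values that chose the gene, so no test is given. With 2 libraries a group other rows can separate without overlap too, and how many do was not counted. In a culture, fewer cells that express a gene and less RNA per cell cannot be told apart.

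The direct comparison of the treated groups was not used to choose MAOA. MAOA was lower in OE than in mimics, at 3.31 ± 0.382 FPKM in OE and 7.22 ± 1.86 FPKM in mimics (SD, n = 2 each). The log2 difference was -1.003 (SE 0.17, 95% confidence interval -1.40 to -0.61, limma adjusted p = 0.0134, adjusted over all 13998 tested rows). Over the other settings the adjusted p ran from 0.00104 to 0.144. It was 0.119 without OE replicate 1, 0.0577 without OE replicate 2 and 0.144 with no filter on low values, so the call depended on these. By rank within a library, 49.0% and 47.1% of annotated genes lay above MAOA in the OE libraries, 34.2% and 41.7% in the mimics libraries, and 24.9% and 25.1% in the NC libraries.

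**Figure D1:**
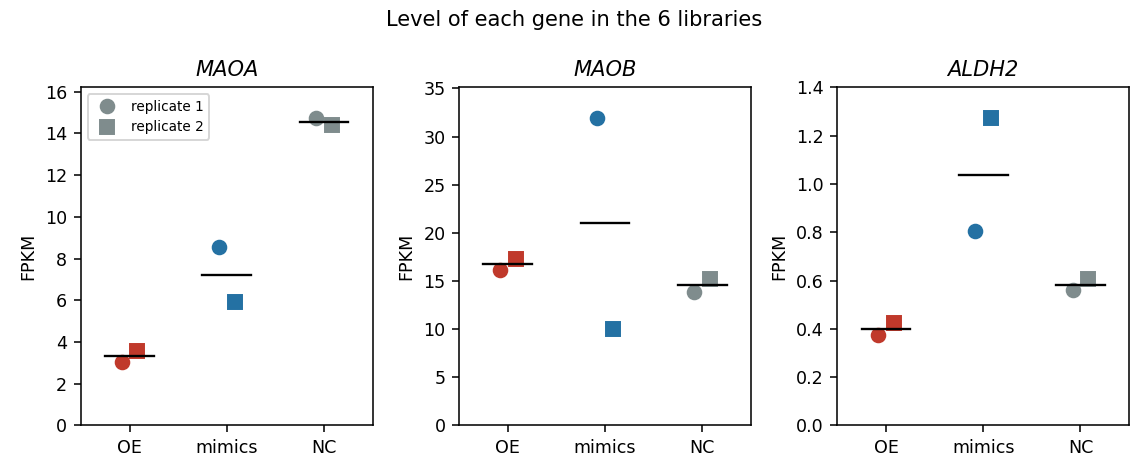
FPKM of MAOA, MAOB and ALDH2 (y axes, each from 0) in the OE, mimics and NC groups (x axes), with circles for replicate 1, squares for replicate 2 and a line at the mean of 2 libraries. MAOA is at 3.04 and 3.58 FPKM in OE, 8.54 and 5.91 in mimics and 14.7 and 14.4 in NC, while MAOB is at 31.9 and 10.01 FPKM in the 2 mimics libraries.

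MAOB, the paralog next to MAOA, had another order of levels. It was 16.2 and 17.3 FPKM in OE, 31.9 and 10.01 FPKM in mimics and 13.9 and 15.2 FPKM in NC. The OE libraries lay slightly above those of NC, and the mimics libraries lay on either side of both groups. The log2 difference was 0.20 in OE against NC and 0.30 in mimics against NC, given without a test. Between the treated groups MAOB averaged 16.7 ± 0.795 FPKM in OE and 20.97 ± 15.5 FPKM in mimics (SD, n = 2 each). That difference, -0.10 (95% confidence interval -1.02 to 0.82), did not pass (limma adjusted p = 0.8996), and the interval does not show that the groups were alike.

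The MAOB comparison rested on which mimics library was used. Without mimics replicate 1 the log2 difference between OE and mimics was 0.71 (limma adjusted p = 0.0101), and without mimics replicate 2 it was -0.91 (adjusted p = 0.00190), in fits that take the remaining mimics library to vary like the other groups. These libraries also stood apart from each other in messages read from mitochondrial DNA. As a share of all FPKM, the 13 mitochondrial protein genes made up 9.67% and 9.49% in OE, 6.23% and 0.533% in the first and second mimics library, and 9.14% and 8.29% in NC. The part of this difference in the MAOB values was not tested. MAOA was lower than in NC in each mimics library, by 0.74 on the log2 scale in a fit without mimics replicate 2 and by 1.23 in a fit without mimics replicate 1.

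FPKM is scaled by length, so the paralogs can be set side by side. MAOA made up 15.8% and 17.1% of the MAOA and MAOB sum in the OE libraries, 21.1% and 37.1% in the mimics libraries, and 51.5% and 48.7% in the NC libraries. This share does not depend on how the libraries are scaled to each other, and its 6 values did not overlap between groups. Its separation from NC uses the MAOA values that chose the gene. How often other pairs of genes separate in this way was not counted. The sum itself was 19.2 and 20.9 FPKM in OE, 40.5 and 15.9 FPKM in mimics and 28.6 and 29.6 FPKM in NC. Only for OE were both sums below those of NC, while the mimics sums lay far apart with MAOB.

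**Figure D2:**
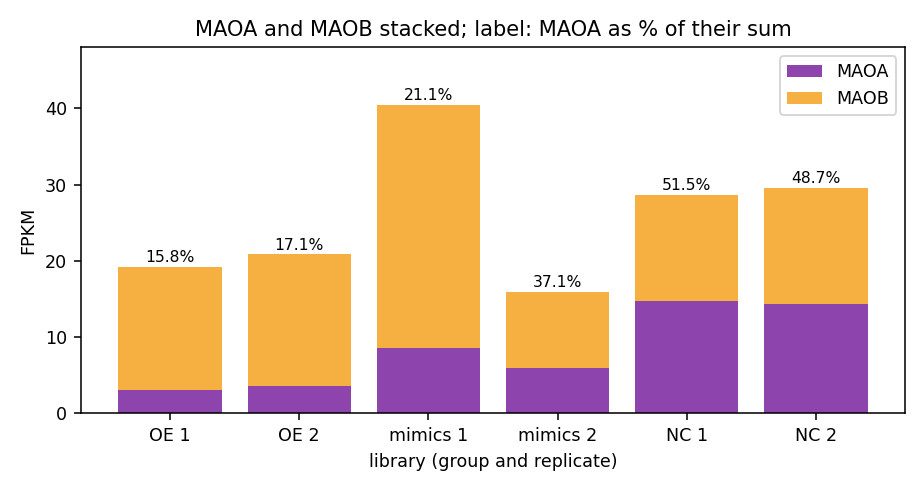
Stacked FPKM of MAOA and MAOB (y axis, from 0) in each library (x axis), with MAOA as a percent of their sum printed above each bar. The MAOA share is 15.8% and 17.1% in OE, 21.1% and 37.1% in mimics and 51.5% and 48.7% in NC.

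ALDH2 was expressed far below the oxidases. It was 0.376 and 0.425 FPKM in OE, 0.805 and 1.27 FPKM in mimics and 0.561 and 0.604 FPKM in NC. The mimics libraries were the highest and the OE libraries the lowest, with no overlap between groups. How many other rows separate in this way was not counted. Against NC the log2 differences were -0.27 in OE and 0.49 in mimics, given without a test, and the added 0.5 FPKM understates both at this level. ALDH2 averaged 0.400 ± 0.0348 FPKM in OE and 1.04 ± 0.331 FPKM in mimics (SD, n = 2 each), a log2 difference of -0.76 (95% confidence interval -1.24 to -0.28). It did not pass (limma unadjusted p = 0.00621, adjusted p = 0.0622). It did pass without mimics replicate 1 (-0.98, adjusted p = 0.0222), with median-ratio scaling (0.0491) and with no intensity trend (0.0419), in a range of 0.0222 to 0.317. At this level few fragments can lie behind a value, and their counting error is unknown. ALDH2 passed the filter of 0.5 FPKM only with the mimics libraries, its highest, included. The test of OE against mimics depends on them and is no independent result under any setting.

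Few genes around the 3 loci were expressed enough to test. Of the 10 nearest annotated genes of the table around the MAOA and MAOB pair, 5 on each side, 3 passed the expression filter: CASK, a membrane scaffold kinase, FUNDC1, a receptor for the removal of mitochondria, and KDM6A, a histone demethylase. Their log2 differences in the 3 comparisons lay between -0.11 and 0.14, and 0 passed by limma (0 at an unadjusted p under 0.05). Around ALDH2, 9 of 10 neighbours passed the filter, with differences of -0.21 to 0.19, and again 0 passed (0 at an unadjusted p under 0.05). Of all 13998 tested rows, 0.0143% were higher and 0.243% lower in OE against NC, 4.29% and 3.71% in mimics against NC, and 2.52% and 5.32% in OE against mimics. Among 3 and 9 genes, counts of 0 lie near these shares, so they set the loci apart from no other region.

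**Figure D3:**
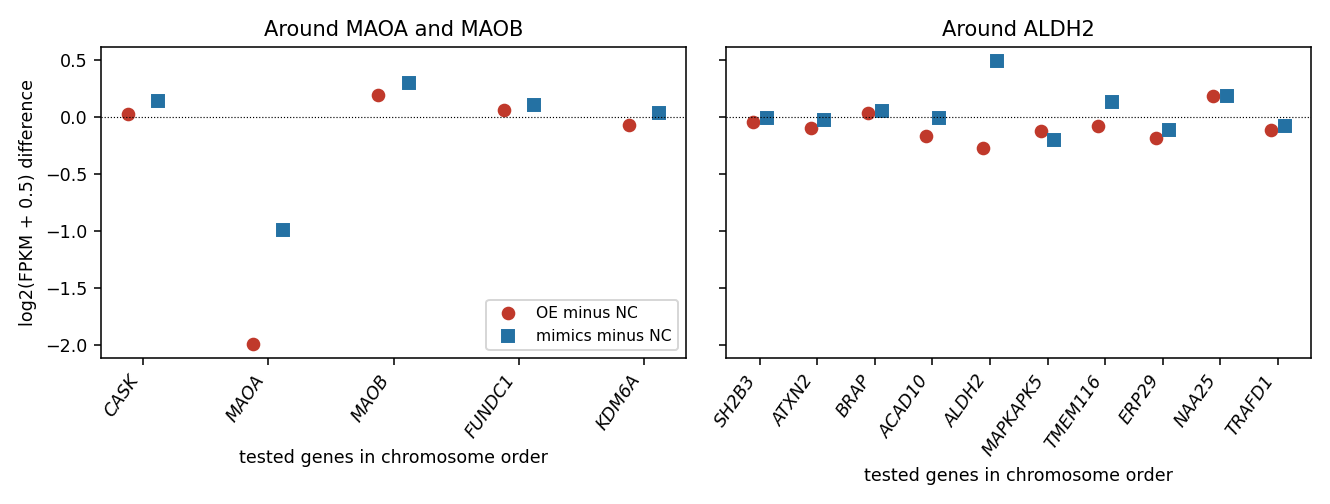
Difference on the log2(FPKM + 0.5) scale (y axis) of OE minus NC (circles) and mimics minus NC (squares) for the tested genes around MAOA and MAOB and around ALDH2, in chromosome order (x axis, not to distance). MAOA stands at -1.99 and -0.99, and its tested neighbours CASK, FUNDC1 and KDM6A lie near 0.

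The genes whose pattern lay nearest to that of MAOA were found by the root mean square difference of log2 ratios to the NC mean over 6 libraries. They were CRYAB (0.347), A2M (0.374), S100A6 (0.409), AKR1C2 (0.428) and NPR1 (0.442), where a smaller value is nearer. CRYAB encodes a small heat shock protein, A2M the protease inhibitor alpha-2-macroglobulin, S100A6 a calcium-binding protein, AKR1C2 a steroid-reducing enzyme and NPR1 a receptor for natriuretic peptides. A2M was 2.11 and 2.10 FPKM in OE, 5.12 and 3.16 FPKM in mimics and 6.17 and 7.13 FPKM in NC. CRYAB was lower, at 0.448 and 0.238 FPKM in OE, 0.680 and 0.564 FPKM in mimics and 2.29 and 2.86 FPKM in NC. The added 0.5 FPKM brings CRYAB nearer to MAOA at such low values. The CRYAB means were 0.133 (OE) and 0.242 (mimics) times NC, against 0.227 and 0.496 for MAOA and 0.316 and 0.622 for A2M. CRYAB did not pass in OE against mimics (-0.42, limma adjusted p = 0.232). CRYAB lies antisense to HSPB2, A2M to A2M-AS1 and S100A6 to BX470102.1, and strand use in counting is not given, so their values are uncertain to that extent.

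**Figure D4:**
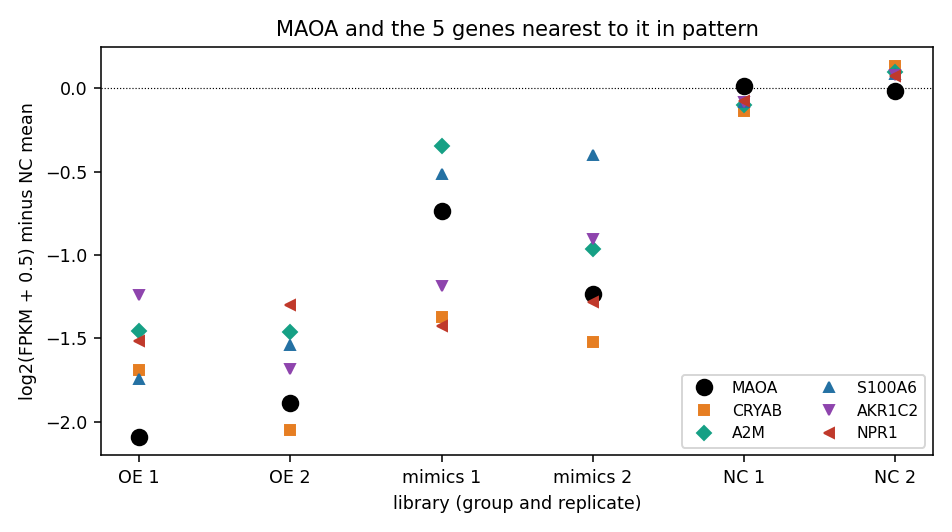
Log2(FPKM + 0.5) minus the NC mean (y axis) in each library (x axis) for MAOA (large black circles) and the 5 genes nearest to it in pattern. All 6 genes lie under the NC mean in every OE and mimics library, with MAOA at its lowest in OE replicate 1. The 5 genes were chosen for likeness to MAOA in these libraries, so their shared fall follows from the choice.

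The rest of the amine pathway and genes linked to it were described with 9 lists of 149 symbols, of which 90 rows passed the expression filter. Beside amine genes, the lists hold flavin and peroxide genes, reported regulators of MAOA and genes reported with MAOA in prostate cancer. Shares of calls over all lists therefore do not describe amine metabolism alone. In OE against NC, 0 of the 90 passed (limma, 9 at an unadjusted p under 0.05), where 0.0143% of all tested rows were higher and 0.243% lower. The median log2 difference was -0.02 in the lists and -0.02 over all rows. The share of all rows at an unadjusted p under 0.05 was not counted in any comparison. EGR1, an immediate early transcription factor reported to act on MAOA, was the single member that passed when either mimics library was left out or when only OE and NC were fitted. EGR1 was 21.2 and 22.01 FPKM in OE, 25.9 and 7.37 FPKM in mimics and 31.2 and 34.1 FPKM in NC.

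The lists were chosen with earlier results of these data known, so their shares of calls are descriptions and not independent of the data. In mimics against NC, 12 of the 90 were higher (13.3%) and 4 lower (4.44%), against 4.29% and 3.71% of all tested rows. The median log2 difference was 0.04 in the lists and -0.00210 over all rows. In OE against mimics, 1 was higher (1.11%) and 12 lower (13.3%), against 2.52% and 5.32% of all tested rows. The 12 higher in mimics and the 12 lower in OE both include GLI1, which passed the filter only through mimics. Of the 12 higher in mimics, 3 were genes reported with MAOA in prostate cancer and 2 were peroxide genes. Of the 12 lower in OE against mimics, 4 and 1 were from these lists. The split of higher and lower calls depended on the scaling. With scaling that left out the mitochondrially encoded genes, 7 list members were higher and 6 lower in mimics against NC, beside 405 and 795 of all tested rows, where the scaling as deposited gave 600 and 520. In OE against mimics the same scaling gave 4 higher and 8 lower list members, beside 557 and 509 of all rows, where the scaling as deposited gave 353 and 745. Quantile normalization gave 573 higher and 751 lower rows in that comparison. Without mimics replicate 2, list members split into 16 higher and 13 lower in mimics against NC and into 9 higher and 16 lower in OE against mimics, beside 1194 and 1824 and 1445 and 1320 of all rows. The 16 calls in mimics against NC became 29 without mimics replicate 2, 3 without NC replicate 1 or 2, and 5 without OE replicate 1 or 2. The 13 calls in OE against mimics became 25 without mimics replicate 2, 7 without either NC library and 3 without either OE library.

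Among enzymes that make amines, DDC, the decarboxylase that forms dopamine and serotonin, was 3.46 and 3.37 FPKM in OE, 4.99 and 4.19 FPKM in mimics and 2.02 and 2.00 FPKM in NC. Its rise in mimics against NC passed (log2 difference 1.02, SE 0.15, limma adjusted p = 0.00697), and its difference in OE, 0.64, did not (adjusted p = 0.274). DDC lies antisense to DDC-AS1, which makes its value uncertain where strand was not used. GCH1, the first enzyme of the tetrahydrobiopterin cofactor, was lower in mimics against NC (-0.46, adjusted p = 0.0322). TH and HDC, which start catecholamine and histamine synthesis, were listed at 0 in every library, and 8 of the 16 members passed the filter.

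Of 18 tested genes of other routes of amine removal, 2 were higher and 2 lower in mimics against NC. Among all tested rows, 4.29% were higher and 3.71% lower. INMT, which methylates indole amines such as tryptamine, was 3.05 and 2.99 FPKM in OE, 14.02 and 13.6 FPKM in mimics and 4.05 and 4.96 FPKM in NC. INMT was higher in mimics than in NC (1.52, SE 0.14, adjusted p = 0.00111) and lower in OE than in mimics (-2.02, adjusted p = 0.000247), while it shares exons with the readthrough gene INMT-MINDY4. SMOX, the spermine oxidase, was higher in mimics than in NC (0.65, adjusted p = 0.0489), and SAT1, which acetylates polyamines (-0.40, adjusted p = 0.0398), and NAT1, an arylamine acetyltransferase (-0.85, adjusted p = 0.0122), were lower.

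Of 14 tested aldehyde dehydrogenases other than ALDH2, 2 were higher and 1 lower in mimics against NC. Among all tested rows, 4.29% were higher and 3.71% lower. ALDH3B2 (0.77, adjusted p = 0.0302) and ALDH3B1 (0.80, adjusted p = 0.0336), which act on fatty aldehydes, were the higher members, and ALDH16A1 (-0.62, adjusted p = 0.0399), which shares exons with AC010619.1 and lies antisense to PIH1D1, the lower one. ALDH3A2, the fatty aldehyde dehydrogenase of the endoplasmic reticulum, had the highest FPKM of the family, at 386 and 354 in OE, 410.4 and 459.7 in mimics and 406 and 402.5 in NC, and did not pass in any comparison.

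Transporters and receptors of amines were mostly near 0. SLC29A4, a low-affinity monoamine transporter that lies antisense to TNRC18, was 1.49 and 1.99 FPKM in OE, 3.21 and 3.43 FPKM in mimics and 1.69 and 1.81 FPKM in NC, and was higher in mimics against NC (0.76, limma adjusted p = 0.0313). SLC22A3, another such transporter, was lower in OE than in mimics (-0.62, adjusted p = 0.0327). Of 30 amine receptors, 8 were listed at 0 in every library and 5 passed the filter. Of these 5, 1 was higher in mimics than in NC and 1 lower in OE than in mimics. Among all tested rows, 4.29% were higher in mimics against NC and 5.32% lower in OE against mimics.

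Genes for the flavin of the oxidases and for their peroxide product are described next. Among all tested rows, 4.29% were higher and 3.71% lower in mimics against NC, and 2.52% and 5.32% in OE against mimics. Of 5 tested flavin genes, 0 passed against NC (limma, 0 in OE and 2 in mimics at an unadjusted p under 0.05), and SLC52A2, a riboflavin transporter antisense to AC233992.2, FBXL6 and TMEM249, was higher in OE than in mimics (0.58, adjusted p = 0.0471). Of 16 tested peroxide genes, PRDX1, a peroxiredoxin antisense to MMACHC (0.58, adjusted p = 0.0233), and CAT, catalase (0.43, adjusted p = 0.0348), were higher in mimics than in NC. GPX8, a glutathione peroxidase of the endoplasmic reticulum, was lower in OE than in mimics (-0.70, adjusted p = 0.0447). CAT was 58.1 and 57.3 FPKM in OE, 59.2 and 65.8 FPKM in mimics and 46.8 and 45.9 FPKM in NC.

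None of the 9 tested regulators reported for MAOA passed in any comparison by limma (1 in each comparison with NC at an unadjusted p under 0.05). These were SP3 in OE, higher (0.28, unadjusted p = 0.0267), and EGR1 in mimics, lower (-1.20, unadjusted p = 0.0221). Of all tested rows, 0.0143% were higher and 0.243% lower in OE against NC, and 4.29% and 3.71% in mimics against NC. In OE against mimics the shares were 2.52% and 5.32%. Among 9 genes a count of 0 lies near these shares, so it sets the regulators apart from no other genes. SP1 was 30.3 and 28.9 FPKM in OE, 23.3 and 30.2 FPKM in mimics and 30.1 FPKM in each NC library. KLF11 was 8.83 and 9.13 FPKM in OE, 7.53 and 9.78 FPKM in mimics and 8.86 and 8.82 FPKM in NC. The groups overlapped for SP1 and KLF11 in each comparison, and KLF11 lies antisense to AC104794.4.

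Of 11 tested genes reported with MAOA in prostate cancer, 3 were higher in mimics than in NC and 4 lower in OE than in mimics. The shares of all tested rows were 4.29% and 5.32%, and the list was chosen with earlier results known. VEGFA, the endothelial growth factor, which lies antisense to AL136131.3, was 21.4 and 20.9 FPKM in OE, 72.4 and 69.7 FPKM in mimics and 24.5 and 23.8 FPKM in NC. It was higher in mimics than in NC (1.54, SE 0.09, adjusted p = 0.000206). EGLN3, an oxygen-sensing prolyl hydroxylase (1.43, adjusted p = 0.00223), and GLI1, a hedgehog pathway factor antisense to ARHGAP9 (0.90, adjusted p = 0.0302), were also higher in mimics. GLI1 averaged 0.336 FPKM in OE, 0.394 FPKM in NC and 1.16 FPKM in mimics. It passed the filter of 0.5 FPKM only through mimics, so its calls are no independent result, though the counts of 3 and 4 above include them. Lower in OE than in mimics were VEGFA (-1.72, adjusted p = 8.52e-05), EGLN3 (-1.65, adjusted p = 0.000985), GLI1 (-0.99, adjusted p = 0.0212) and EGLN1, another such hydroxylase (-0.59, adjusted p = 0.0263). TWIST1, a factor of mesenchymal change, did not pass in any comparison, and SHH, IL6, GLI2 and TNFSF11 stayed under the filter, TNFSF11 at 0 throughout.

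**Figure D5:**
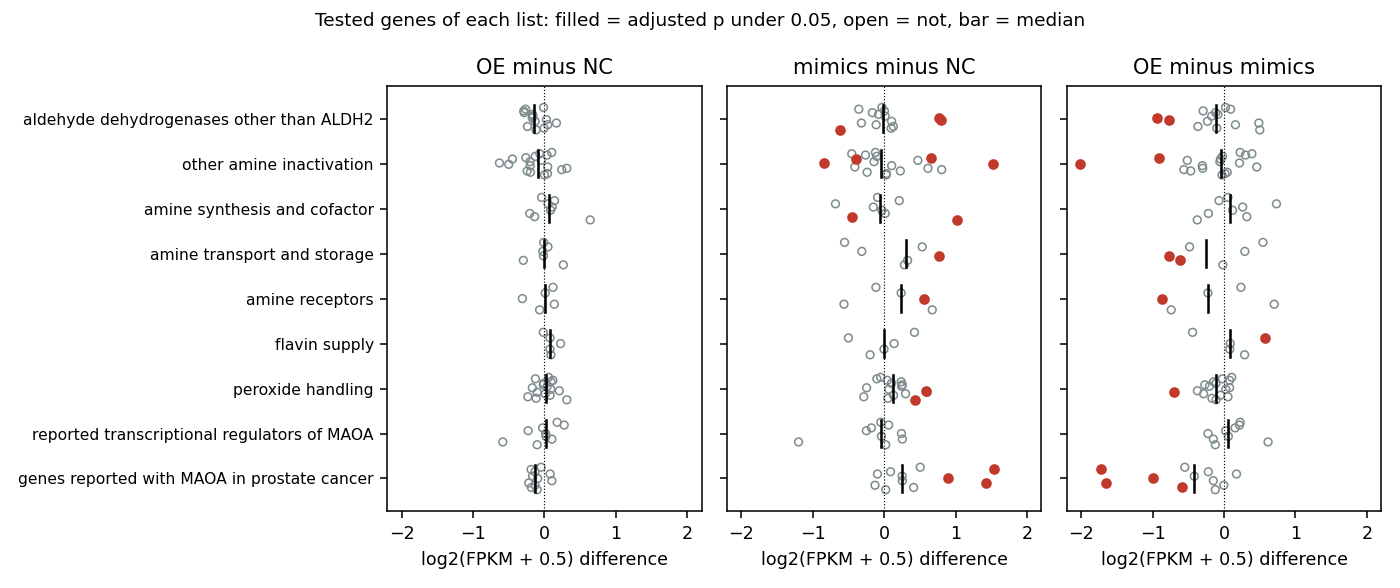
Difference on the log2(FPKM + 0.5) scale (x axes) of each tested gene in 9 lists (rows) for OE minus NC, mimics minus NC and OE minus mimics. Filled points have an adjusted p under 0.05, open points do not, and black bars are list medians. No point is filled in OE minus NC.

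Markers of other cells were followed beside these results. The 10 genes that mark non-luminal prostate cancer lines summed to 83.2 and 80.4 FPKM in OE, 170.8 and 129.9 FPKM in mimics and 130.9 and 155.1 FPKM in NC. Of their 6 tested members 1 passed in OE against NC, LGALS1, the lectin galectin-1, which was 53.7 and 53.02 FPKM in OE, 117.1 and 92.7 FPKM in mimics and 102.2 and 118.8 FPKM in NC (OE against NC -1.04, limma adjusted p = 0.0194). PLAU was at 0 in all libraries, and AXL, CAV1 and CAV2 were at most 0.400 FPKM. In OE against mimics 2 of the 6 were lower, LGALS1 among them (-0.96, adjusted p = 0.00584). The part of LGALS1 and of this list in the MAOA values was not tested. The 7 fibroblast markers summed to 90.6 and 86.6 FPKM in OE, 179.6 and 108.3 FPKM in mimics and 89.6 and 85.95 FPKM in NC, nearly all of it LUM, and none of 4 tested members passed in mimics against NC (limma, 4 at an unadjusted p under 0.05). In OE against mimics 1 of the 4 was lower, COL1A1, a collagen chain (-1.06, adjusted p = 0.0229), all 4 had an unadjusted p under 0.05, and the list median was -0.79. Of the 10 luminal markers, FOLH1, the prostate-specific membrane antigen, was higher in mimics than in NC (0.82, adjusted p = 0.00547). FOLH1 (-0.86, adjusted p = 0.00507) and KRT8, a keratin of luminal cells (-0.82, adjusted p = 0.0178), were lower in OE than in mimics, with a list median of -0.39 and 6 of 10 at an unadjusted p under 0.05. MAOA was lower in that comparison too, and the part of the fibroblast and luminal markers in its value was not tested. Basal, leukocyte and endothelial markers summed to at most 3.33 FPKM. Beside these counts, 0.243% of all tested rows were lower in OE against NC and 5.32% in OE against mimics. In mimics against NC, 4.29% of all tested rows were higher.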

How the data were processed

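Total RNA of 6 libraries of 22RV1 cells was extracted with TRIzol and made into messenger RNA libraries, per the labels' protocols. The authors deposited 1 table of FPKM values per gene. Reads were aligned with HISAT2 2.0.4 to GRCh38, per the submitters' processing notes, while no source used here gives the counting tool, annotation or strand setting. FPKM carries no depth, and fragment counts were not recovered from it, so counting error is not given.

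Differences were computed on log2(FPKM + 0.5) for the 13998 rows that averaged 0.5 FPKM or more over the 6 libraries, with limma 3.58.1 in R 4.3.3 (intensity trend, 3 group means over all 6 libraries, two-sided, Benjamini-Hochberg adjustment over all tested rows, threshold 0.05). The script was tested on simulated data. An exact permutation test of 2 against 2 libraries cannot go below 0.333, so limma borrows the spread across rows, and its p-values measure only the spread between these libraries. Both comparisons with NC share the NC libraries.

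Members and gene lists were chosen with earlier results of these data known. Named list genes were those that passed in any comparison (at most 4 a list, by size of change), or otherwise the 2 with the highest mean FPKM. Each gene also had its 5 neighbours on either side named, and MAOA its 5 nearest genes in pattern. EGR1, SP3, ALDH3A2, KLF11, TWIST1, LGALS1, COL1A1, FOLH1 and KRT8 were added after their values were seen. Gene models came from GENCODE 29, which matched 19974 of 24872 rows, and sequences from RefSeq and GRCh38. The ALDH2 promoter is not used here, and MAGI2-AS3 was not analysed here. Some genes and sequences that these rules name are not reported here. Alternatives covered the pseudocount, filter, scaling, moderation, the libraries fitted, a replicate block and each library left out.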

Additional observations from a re-analysis of the deposited data

Results flagged for a closer look

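The effects of the 2 treatments against the same NC libraries differed in the direct limma test of OE against mimics for MAOA and for 12 named genes of the 9 lists. Genes were named because they passed in a comparison, this one included, so their number follows from the naming rule. Of all 90 tested list members, 1.11% were higher and 13.3% lower in OE against mimics. The shares of all tested rows were 2.52% and 5.32%. The values are log2 differences of OE minus mimics on the log2(FPKM + 0.5) scale, each with an adjusted p under 0.05. MAOA differed by -1.003. Of aldehyde dehydrogenases, ALDH3B2 differed by -0.94 and ALDH3B1 by -0.77. Among genes of other amine routes INMT differed by -2.02 and SMOX by -0.91. Among transporters SLC29A4 differed by -0.78 and SLC22A3 by -0.62. The riboflavin transporter SLC52A2 differed by 0.58 and the peroxidase GPX8 by -0.70. Among genes reported with MAOA, VEGFA differed by -1.72, EGLN3 by -1.65, EGLN1 by -0.59 and GLI1, which passed the filter only through mimics, by -0.99. SLC52A2 was the single one of these that was higher in OE.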

How the results depend on the processing

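Over 17 alternatives the MAOA difference of OE minus mimics stayed negative (-1.25 to -0.75 with each library left out), and with no filter it was -1.003 with a limma adjusted p of 0.144. The MAOB difference ran from -0.91 to 0.71 with libraries left out, and it reversed to 0.71 without mimics replicate 1. For ALDH2 it ran from -0.98 to -0.54, and it passed at -0.76 with median-ratio scaling and at -0.76 with no intensity trend. ALDH2 reached the filter only with the mimics libraries included, so these passes are no independent result. Against NC with each library left out, MAOA ran from -2.09 to -1.89 in OE and -1.23 to -0.74 in mimics, MAOB from 0.14 to 0.26 in OE and -0.51 to 1.11 in mimics, and ALDH2 from -0.31 to -0.23 in OE and 0.27 to 0.71 in mimics. With pseudocounts of 0.1 and 1 FPKM, MAOA in OE was -2.11 and -1.86, and ALDH2 in OE was -0.45 and -0.18. ALDH2 could not be tested at a minimum of 2 FPKM.

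Genes passing in OE against NC numbered 36, 7 with no filter, 120 with only the 4 libraries compared and 5 to 121 with libraries left out. In mimics against NC they numbered 1120, with 97, 618 and 65 to 3018 under the same changes, and in OE against mimics 1098, with 137, 654 and 136 to 2765. List members numbered 0 in OE against NC (1 with 4 libraries, 0 to 1 with libraries left out), 16 in mimics against NC (2 with no filter, 5 with 4 libraries, 3 to 29 with libraries left out) and 13 in OE against mimics (4, 7 and 3 to 25). The cause was not tested. Whether the replicate numbers pair the libraries is not known. Deviations of same-numbered libraries correlated at 0.153 for OE and NC, -0.0268 for mimics and NC and 0.0194 for OE and mimics. Such values over rows do not settle whether libraries were paired. With a replicate block 9 genes passed in OE against NC and 938 in mimics against NC, and the adjusted p of MAOA in OE against mimics was 0.0337. Fragment depth is unknown, which limits ALDH2 most.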

Other observations

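The summed FPKM of MAOA and MAOB over that of ALDH2 was chosen as a measure after its values were seen. It was 51.1 and 49.1 in the OE libraries, 50.3 and 12.5 in the mimics libraries, and 51.03 and 48.9 in the NC libraries. All libraries but mimics replicate 2 lay close together, and the ratio was not tested.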
